A study of Mus musculus with 6 samples.

Results

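Potassium channels were examined in mouse hearts that lack STAT3 in cardiomyocytes. The genes described are those whose symbol starts with Kcn and whose raw read counts sum to 60 or more over the 6 libraries. This gave 46 genes among 98 Kcn symbols and 46095 genes in the table. Another 33 Kcn symbols had between 1 and 59 counts in all, and 19 had none. Just inside the minimum lay Kcne3 with 63 counts and Kcnk5 with 72, and just outside it lay Kcnn4 with 57 and Kcnc4 with 49.

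RNA sequencing had been done on 3 heart samples from STAT3cKO mice, a cardiomyocyte-specific deletion of the transcription factor STAT3, and 3 from wild-type mice, whose columns are named NC. The series asked which pathways that bear on heart function change without STAT3. Genotype is the only factor given. The sources used here give neither strain, age, sex and Cre line nor whether each library came from its own animal, so p-values may measure technical spread only. Replicates carry the numbers of the sample titles, 3, 6 and 91 for STAT3cKO and 1, 3 and 4 for wild type. Each library is called a heart below.

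Potassium channels let potassium leave the cell along its gradient, which ends the action potential and holds the resting potential. Their pore subunits form families: voltage-gated Kv channels, inward rectifiers, K2P leak channels and channels opened by calcium or sodium. Electrically silent Kv subunits and auxiliary subunits (Kv beta, KCNE, KChIP and the beta subunits of large-conductance channels) change how pores are trafficked and gated. In mouse ventricle repolarization relies on the transient outward current and on slowly inactivating Kv currents, while the delayed rectifiers that dominate in larger mammals carry less current.

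Libraries held 15416877 to 18264052 counts. Stat3 itself was at 52.9, 63.8 and 59.6 TMM-normalised CPM in STAT3cKO replicates 3, 6 and 91, against 99.7, 85.8 and 97.5 CPM in wild type replicates 1, 3 and 4. Its log2 fold change was -0.68 ± 0.10 (SE; edgeR adjusted p = 0.000677). The 10 cardiomyocyte markers summed to 60590 to 69870 CPM in STAT3cKO hearts and 58020 to 62800 CPM in wild-type hearts. Of them 3 were higher (30%), among them Myl2, and 2 lower (20%), among them Ryr2. Over all genes tested 13.2% were higher and 12.6% lower. In a second fit described below, with an offset for transcript length and GC content, 2 were higher and 1 lower (all genes: 10.4% and 7.47%). Myl2 kept its call in that edgeR fit (adjusted p = 0.00921) and Ryr2 did not (0.364). Tnnt2 and Tnni3, higher without the offset, did not pass with it (edgeR adjusted p = 0.0653 and 0.105). Ttn passed only with the offset (edgeR adjusted p = 0.861 without it and 0.00563 with it). All log2 fold changes below are STAT3cKO over wild type, and a gene is said to have risen or fallen when its adjusted p in edgeR's quasi-likelihood test was under 0.05.

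Most potassium channel genes that moved fell. Of the 46 genes, 44 had enough counts to be tested, and 12 of them fell, 2 rose and 30 did not pass. Among all 14484 genes tested, 12.6% were lower and 13.2% higher. The shares among the tested Kcn genes were 27.3% lower and 4.55% higher, with a median log2 fold change of -0.22, against -0.0016 for all genes. The family's pore genes supplied 10 of the decreases (30.3% of 33 tested), and its auxiliary subunits 2 (28.6% of 7 tested), a similar share.

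Among those that fell were Kcna2, Kcna5, Kcna6, Kcnab1, Kcnh2, Kcnj3, Kcnj5, Kcnk6, Kcnmb1, Kcnn2 and Kcnn3, and those that rose were Kcnc1 and Kcne1. The STAT3cKO and wild-type values did not overlap for 22 of the tested Kcn genes (50%), where the share over all genes tested was 43%. Higher were 5 (11.4%) and lower 17 (38.6%), against 21.5% higher and 21.5% lower over all genes tested. That set takes in all 14 genes that passed and another 8 that did not.

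Fold changes in these libraries followed transcript length over all genes tested (Spearman's rho -0.463 across genes, which are not independent replicates). Potassium channel transcripts are longer than most, with a median of 3976 nt, against 3068 nt over all genes with a length. Within the 42 tested protein-coding Kcn genes rho was only -0.08. A second fit therefore carried an offset for length and GC content, called the offset below. With it 10 of the tested Kcn genes were lower and 3 higher (all genes: 7.47% and 10.4%). The median log2 fold change was then -0.12, against 0.02 for all genes. Under both fits 8 genes fell and 2 rose, a count that was not made over all genes. Kcnh2, Kcnj5 and Kcnk6 were among the 4 that passed only without the offset. Scaled by library size alone, which shifted the median of all genes to -0.11, 18 Kcn genes were lower and 2 higher, where 18.7% of all genes were lower, 7.66% higher and 26.4% either.

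**Figure D1:**
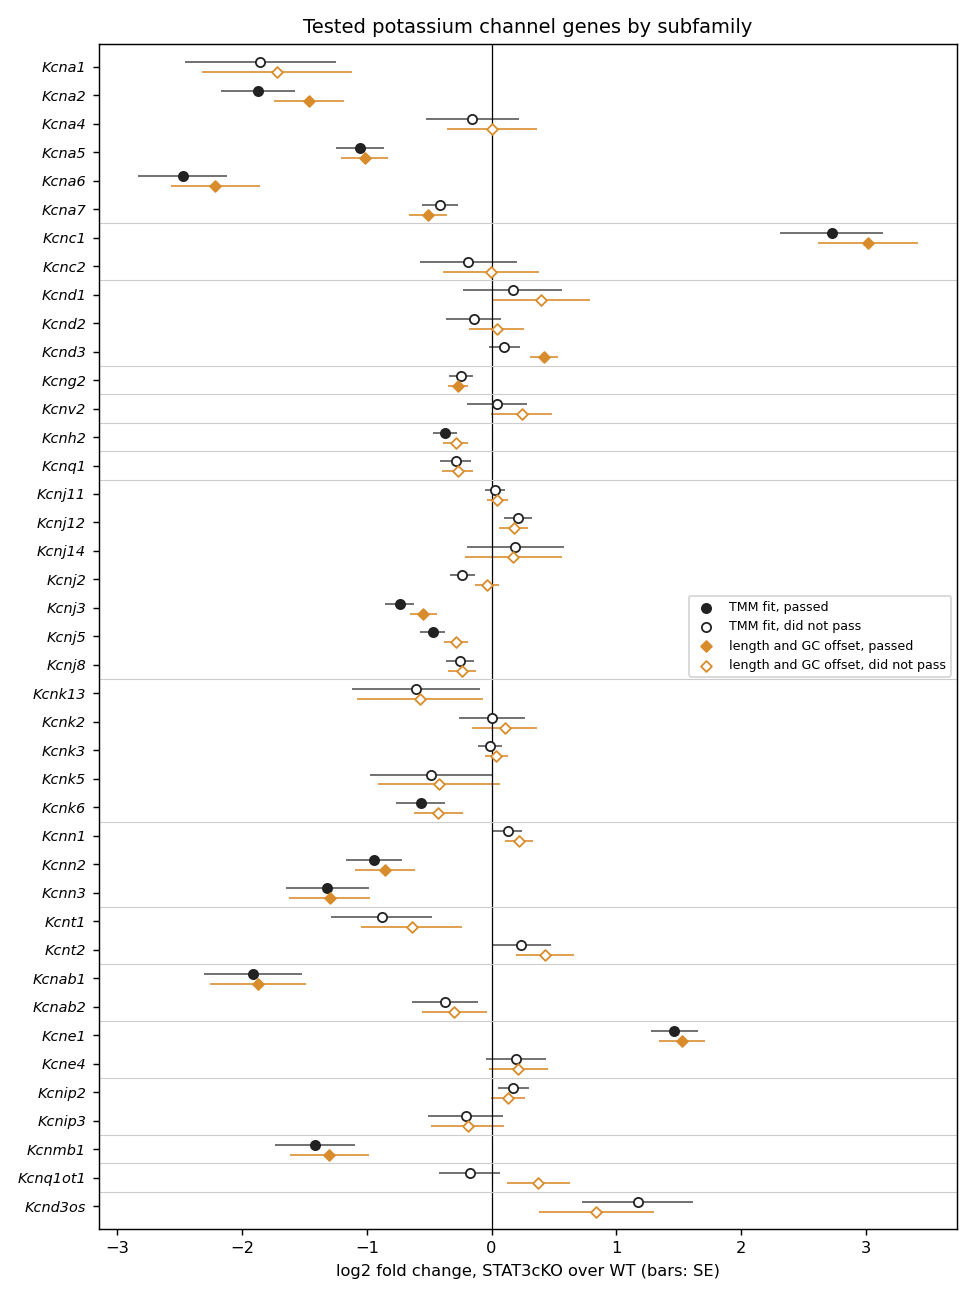
Log2 fold change of 41 of the 44 tested potassium channel genes, STAT3cKO over WT, with SE bars, grouped by subfamily down the page. Black circles are the TMM fit and orange diamonds the fit with the length and GC offset, filled where the adjusted p was under 0.05. Kcnc1 at 2.73 and Kcne1 at 1.46 lie far right, and Kcna6 at -2.48 lies farthest left.

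By level, a few genes made up most of the family. Levels of different genes are compared here as CPM per kb of transcript. The 10 most abundant genes, led by Kcnip2, Kcnk3, Kcnj11 and Kcng2, held 82.8% of the summed CPM per kb of the family's protein-coding members. Kcnip2 held 21.8 ± 1.90% of that sum in STAT3cKO hearts and 17.7 ± 2.38% in wild-type hearts (SD, n = 3 each). Kcnk3 held 16.6 ± 0.674% in STAT3cKO and 15.4 ± 0.737% in wild type. The summed level was 312, 308 and 276 CPM per kb in STAT3cKO replicates 3, 6 and 91, and 323, 326 and 326 CPM per kb in wild type replicates 1, 3 and 4, lower in every STAT3cKO heart. Of the 4 leading genes none passed the test without the offset.

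Several genes of the Kv1 subfamily of voltage-gated pores fell. All 6 measured Kcna genes had a negative log2 fold change (with the offset Kcna4 was at 0.0049). Of them 3 fell (50%, against 12.6% of all genes), and 4 with the offset (66.7%, against 7.47%). The subfamily's summed level was 10.02, 10.8 and 8.07 CPM per kb in STAT3cKO, against 17.8, 17.9 and 15.8 CPM per kb in wild type. Kcna5 encodes a pore subunit of a slowly inactivating Kv current of mouse ventricle. It stood at 11.6, 13.7 and 8.54 CPM in STAT3cKO replicates 3, 6 and 91, against 28.4, 22.9 and 18.6 CPM in wild type replicates 1, 3 and 4. Every STAT3cKO heart lay below every wild-type heart. The log2 fold change was -1.05 ± 0.19 (SE; edgeR adjusted p = 0.00347), and -1.02 with the offset.

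Kcna2 and Kcna6, Kv1 pore genes best known from axons, fell further but from low levels. Kcna2 was at 1.09, 2.47 and 1.86 CPM in STAT3cKO and 5.66, 8.77 and 5.59 CPM in wild type (log2 fold change -1.87 ± 0.29, edgeR adjusted p = 0.00103). Kcna6 was at 0.409, 0.39 and 0.329 CPM in STAT3cKO hearts, 6 raw counts in each, against 2.11, 2.15 and 2.08 CPM in wild type. Its log2 fold change was -2.48 ± 0.36 (edgeR adjusted p = 0.000696), the lowest of the tested Kcn genes. Kcna1, another axonal subunit, had values of 1.23, 2.99 and 0.493 CPM in STAT3cKO and 4.74, 8.53 and 3.57 CPM in wild type, without overlap, but did not pass (log2 fold change -1.85 ± 0.61, adjusted p = 0.0661). It passed in 5 of 15 alternatives, with library size alone (adjusted p = 0.0389), without a filter (1.597e-05), in edgeR without robust estimation (0.0239), in limma-voom (0.018) and without STAT3cKO replicate 6, where edgeR gave a log2 fold change of -2.73 (0.00516). In the other 10 Kcna1 did not pass. They include the offset (adjusted p = 0.0994), DESeq2 (0.0654) and edgeR without STAT3cKO replicate 3 (0.191). Kcna1, Kcna5 and Kcna6 are neighbours on chromosome 6 of GRCm38, at 126636463 to 126645801, 126532551 to 126535555 and 126708328 to 126740834, while Kcna2 lies on chromosome 3.

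Of 10 Schwann cell and neuron markers, 6 were tested and the Schwann cell markers Sox10, Gfra3 and Cdh19 fell, a share of 50% where 12.6% of all genes were lower. These 3 kept their calls with the offset (50%, against 7.47% of all genes). S100b and the noradrenaline enzyme gene Dbh were among those that did not pass, Dbh with a log2 fold change of 0.26, and Th had no count in any heart. The markers summed to 14.4 to 19.8 CPM in STAT3cKO and 25.8 to 29.9 CPM in wild type. Their part in the lower Kcna1, Kcna2 and Kcna6 values was not tested. In bulk heart RNA, fewer cells of a type and less RNA per cell cannot be told apart.

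The remaining Kcna genes were closer to wild type. Kcna7, a muscle Kv1 pore, was at 11.5, 10.1 and 9.09 CPM in STAT3cKO and 11.8, 13.8 and 15.1 CPM in wild type, without overlap. It did not pass (log2 fold change -0.41 ± 0.14, edgeR adjusted p = 0.0519), but did with the offset (-0.51, adjusted p = 0.0365). Kcna4, a subunit of the slow transient outward current, overlapped between groups, at 1.02 to 2.79 CPM in STAT3cKO and 1.55 to 2.80 CPM in wild type (log2 fold change -0.15, adjusted p = 0.788).

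Kcnab1 encodes a Kv beta subunit that assembles with Kv1 pores. It was at 0.614, 0.649 and 0.821 CPM in STAT3cKO replicates 3, 6 and 91, against 1.80, 4.12 and 2.08 CPM in wild type replicates 1, 3 and 4. It fell, and edgeR gave it a log2 fold change of -1.91 ± 0.39 with an adjusted p of 0.0044. Kcnab2, its paralog, was at 1.998 ± 0.1204 CPM in STAT3cKO and 2.60 ± 0.491 CPM in wild type (SD, n = 3 each) and did not pass (adjusted p = 0.329).

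The Kcnab1 promoter was one of few in the family that held the letters of a STAT binding site, and is shown for that reason beside the only other. RefSeq windows of GRCm38.p6 reaching 250 bases before to 50 after a start were found for 31 of the 46 genes. The motif searched was TTCNNNGAA, which reads the same on both strands. It was present for Kcnab1 and Kcnip3, which is 6.45% of those 31 genes, against 9.55% of 27025 genes with a window. In the sequences below, written along the gene's strand, capitals mark the match, which starts 188 bases before the start of Kcnab1 (chr3:64948962-64949261, plus strand) and 64 bases before the start of Kcnip3 (chr2:127522045-127522344, minus strand).
Kcnab1: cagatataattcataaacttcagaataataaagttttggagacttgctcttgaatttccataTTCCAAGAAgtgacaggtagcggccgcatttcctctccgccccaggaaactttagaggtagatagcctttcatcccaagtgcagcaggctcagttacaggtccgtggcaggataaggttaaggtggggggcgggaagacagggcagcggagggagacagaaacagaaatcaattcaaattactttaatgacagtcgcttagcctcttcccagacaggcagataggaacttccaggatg
Kcnip3: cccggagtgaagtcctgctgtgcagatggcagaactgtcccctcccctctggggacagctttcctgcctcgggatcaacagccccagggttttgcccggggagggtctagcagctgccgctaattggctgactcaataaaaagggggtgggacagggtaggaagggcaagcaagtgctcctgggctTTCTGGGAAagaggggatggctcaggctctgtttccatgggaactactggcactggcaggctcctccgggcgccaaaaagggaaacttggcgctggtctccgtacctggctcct
Kcnip3, a calcium-binding protein that also acts as a transcriptional repressor, did not pass (log2 fold change -0.21 ± 0.30, edgeR adjusted p = 0.641).

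**Figure D2:**
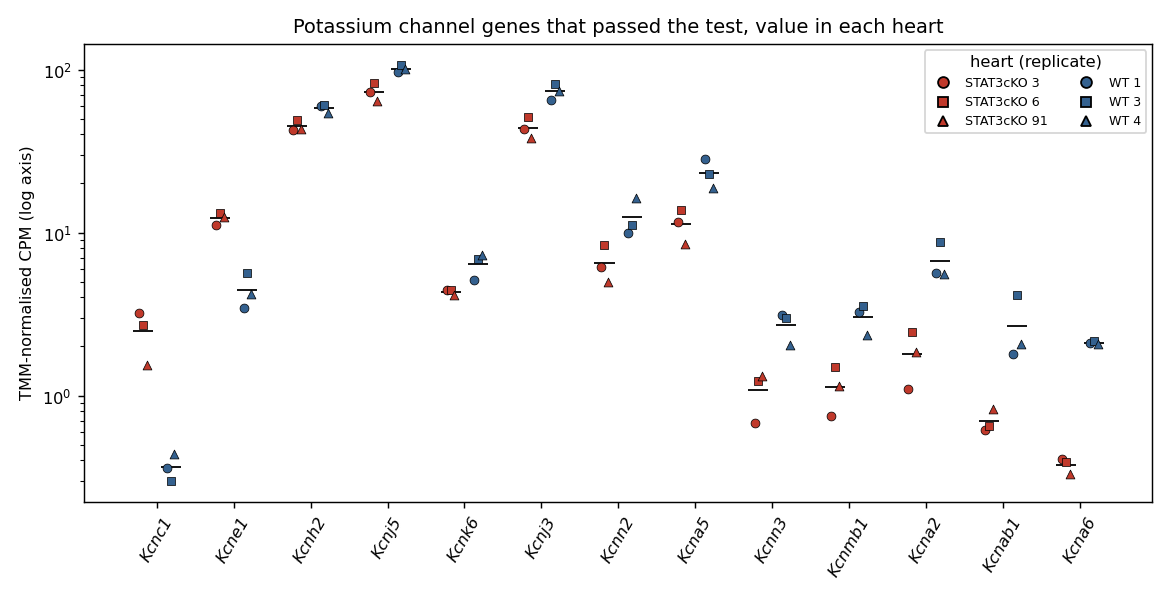
TMM-normalised CPM on a log axis in each heart for 13 of the 14 potassium channel genes that passed the test, STAT3cKO in red left of WT in blue, ordered by log2 fold change. Marker shapes are replicates and short lines are group means. Only Kcnc1 and Kcne1 have the STAT3cKO hearts on top, and none of the genes drawn has overlapping groups.

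Kcng2 and Kcnv2 encode electrically silent subunits, which form no channel alone and modify the pores they join. Kcng2 was at 76.1, 73.4 and 73.6 CPM in STAT3cKO and 97.0, 89.0 and 78.1 CPM in wild type. It did not pass (log2 fold change -0.24 ± 0.09, edgeR adjusted p = 0.0758), but did with the offset (-0.27, adjusted p = 0.0434). Kcnv2 averaged 12.2 ± 4.44 CPM in STAT3cKO and 11.8 ± 0.451 CPM in wild type (SD, n = 3 each; adjusted p = 0.911).

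Genes of the fast transient outward current did not pass. Kcnd2 and Kcnd3 are its Kv4 pores and Kcnip2 is the KChIP subunit they need in heart. Kcnd2 was at 13.4, 18.4 and 8.76 CPM in STAT3cKO replicates 3, 6 and 91, around 15.1, 15.03 and 14.5 CPM in wild type replicates 1, 3 and 4. The STAT3cKO hearts lay on either side of the wild-type hearts, and the log2 fold change was -0.14 with a 95% interval from -0.58 to 0.29 (edgeR adjusted p = 0.67). Kcnd3 averaged 16.6 ± 1.34 CPM in STAT3cKO and 15.4 ± 1.33 CPM in wild type (log2 fold change 0.10, adjusted p = 0.561). With the offset Kcnd3 was higher (0.42, adjusted p = 0.0237). Kcnip2 was at 179, 152 and 137 CPM in STAT3cKO and 127, 127 and 160 CPM in wild type (log2 fold change 0.18, interval -0.06 to 0.41, adjusted p = 0.306).

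The Kcnd3 opposite strand transcript, Kcnd3os, shares exon sequence with Kcnd3. It held 14, 19 and 17 counts in STAT3cKO, against 10, 4 and 11 in wild type (edgeR adjusted p = 0.0712). Since the strand setting of the counting is not given, reads of such a pair cannot be told apart.

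Kcnc1 showed the largest fold change of the tested Kcn genes, an increase at a low level. It encodes a fast Kv3 channel known from fast-spiking neurons. Raw counts were 47, 42 and 28 in STAT3cKO replicates 3, 6 and 91, against 7, 5 and 8 in wild type replicates 1, 3 and 4, or 3.21, 2.73 and 1.53 CPM against 0.36, 0.298 and 0.439 CPM. All STAT3cKO hearts lay above all wild-type hearts. The log2 fold change was 2.73 ± 0.41 (SE; edgeR adjusted p = 0.000826), and 3.02 with the offset. Kcnc1 lies on chromosome 7 at 46396219 to 46438706 of GRCm38, in the same region as Kcnj11 at 46097123 to 46100952, which did not pass. Its relative Kcnc2 did not pass (log2 fold change -0.19 ± 0.39, adjusted p = 0.752).

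Genes of the delayed rectifiers went different ways. Kcne1 encodes the single-span subunit that slows Kcnq1 channels to form the slow delayed rectifier. It rose to 11.1, 13.2 and 12.4 CPM in STAT3cKO hearts, against 3.45, 5.67 and 4.22 CPM in wild-type hearts. Every STAT3cKO heart lay far above every wild-type heart. The log2 fold change was 1.46 ± 0.19 (SE; edgeR adjusted p = 0.00037), and 1.53 with the offset. Kcnq1, its pore partner, was at 25.9, 30.6 and 22.2 CPM in STAT3cKO and 31.8, 33.8 and 30.3 CPM in wild type, overlapping (log2 fold change -0.29 ± 0.12, adjusted p = 0.1). Kcnq1 shares exon sequence with the antisense RNA Kcnq1ot1, which was at 3.56 ± 0.915 CPM in STAT3cKO and 3.997 ± 0.688 CPM in wild type (SD, n = 3 each; adjusted p = 0.631).

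Kcnh2, the pore gene of the rapid delayed rectifier, fell by a small amount. It was at 42.6, 49.1 and 43.2 CPM in STAT3cKO and 59.9, 60.7 and 54.2 CPM in wild type, with no overlap (log2 fold change -0.37 ± 0.10, edgeR adjusted p = 0.0131). It missed the threshold with the offset (adjusted p = 0.0622), without STAT3cKO replicate 3 (0.0563) and without wild type replicate 3 (0.052). The other KCNE genes showed no call. Kcne4, an inhibitory subunit, averaged 3.64 ± 0.616 CPM in STAT3cKO and 3.17 ± 0.563 CPM in wild type (adjusted p = 0.574), and Kcne3, with 5, 8 and 10 counts in STAT3cKO and 24, 7 and 9 in wild type, was too low to test.

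Of the 7 inward rectifier genes, both subunits of the acetylcholine-activated channel fell (28.6%, against 12.6% of all genes) and the other 5 did not pass. With the offset 1 fell (14.3%, against 7.47% of all genes). Kcnj3 and Kcnj5 form the acetylcholine-activated channel, which slows the heart under vagal input and is known from atria and nodes. Kcnj3 was at 43.5, 50.9 and 37.9 CPM in STAT3cKO replicates 3, 6 and 91, against 65.2, 81.5 and 73.7 CPM in wild type replicates 1, 3 and 4. Its log2 fold change was -0.74 ± 0.12 (SE; edgeR adjusted p = 0.00122), and -0.55 with the offset. Kcnj5 was at 72.7, 82.6 and 64.4 CPM in STAT3cKO and 96.7, 107 and 101 CPM in wild type (log2 fold change -0.47 ± 0.10, adjusted p = 0.00552). With the offset its adjusted p was 0.0501. Neither gene's groups overlapped. Within each heart the ratio of Kcnj3 to Kcnj5 in CPM per kb was 0.537, 0.553 and 0.529 in STAT3cKO, against 0.606, 0.685 and 0.656 in wild type. The difference of the log2 ratios was -0.26 (exact permutation test, two-sided, p = 0.1, which with 3 hearts a group is the lowest value it allows).

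Atrial genes varied widely between hearts within both groups. The atrial myosin light chain Myl7 was at 34.9, 0.844 and 0.986 CPM in STAT3cKO replicates 3, 6 and 91, and 0.875, 161 and 23.4 CPM in wild type replicates 1, 3 and 4. The 5 atrial genes summed to 68.4 to 729 CPM in STAT3cKO and 53.2 to 485 CPM in wild type. The highest sum, in STAT3cKO replicate 91, was almost all Nppa (722 CPM), a gene that ventricles under load also express, while Myl4 was at 6.62 CPM and Sln at 0 there. None of the 4 tested passed in edgeR, limma-voom or DESeq2, and 0 had an unadjusted p under 0.05. Their log2 fold changes in edgeR were -2.37 ± 2.17 for Myl7, -1.57 ± 2.12 for Sln, -1.49 ± 1.79 for Myl4 and 1.66 ± 1.12 for Nppa (SE). With errors of that size these tests cannot show whether the groups differ in atrial RNA. Bmp10 was at or near 0 in every heart. The part of atrial RNA in the Kcnj3, Kcnj5 and Kcna5 values was not tested.

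**Figure D3:**
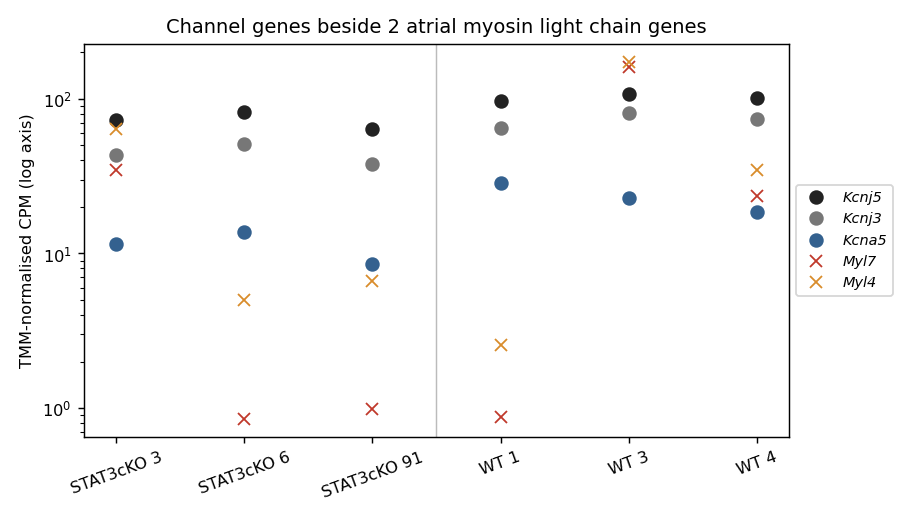
TMM-normalised CPM on a log axis in each heart, STAT3cKO left of the line and WT right of it, for the channel genes Kcnj5, Kcnj3 and Kcna5 (circles) and the atrial genes Myl7 and Myl4 (crosses). The atrial genes range widely within each group, from 0.844 to 34.9 CPM for Myl7 in STAT3cKO and from 0.875 to 161 CPM in WT. Their part in the channel gene values was not tested.

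Pores of the KATP channel, which opens when ATP is low, did not pass. Kcnj11, the cardiomyocyte pore, was at 111, 121 and 116 CPM in STAT3cKO hearts and 111, 113 and 118 CPM in wild-type hearts. Its log2 fold change of 0.03 had an interval from -0.13 to 0.19 (edgeR adjusted p = 0.827). Kcnj8, the pore known from smooth muscle and pericytes, was at 46.1, 39.2 and 35.8 CPM in STAT3cKO and 53.0, 45.4 and 45.8 CPM in wild type (log2 fold change -0.25 ± 0.11, adjusted p = 0.117). The ratio of Kcnj8 to Kcnj11 in CPM per kb was 0.512, 0.399 and 0.379 in STAT3cKO and 0.588, 0.495 and 0.480 in wild type, which overlap (difference of log2 ratios -0.28, exact permutation test, two-sided, p = 0.3).

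Genes of the strong inward rectifier, which sets the resting potential, also did not pass. Kcnj2 was at 34.5, 35.3 and 40.2 CPM in STAT3cKO and 40.9, 46.6 and 42.3 CPM in wild type (log2 fold change -0.24 ± 0.10, edgeR adjusted p = 0.104), and Kcnj12 at 29.3, 33.4 and 33.3 CPM in STAT3cKO and 29.8, 23.9 and 29.2 CPM in wild type (0.21 ± 0.11, adjusted p = 0.191). The ratio of Kcnj2 to Kcnj12 in CPM per kb was 0.534, 0.479 and 0.546 in STAT3cKO, against 0.620, 0.883 and 0.654 in wild type, without overlap. The log2 ratios differed by -0.45 (exact permutation test, two-sided, p = 0.1). Their transcripts differ in length, 5444 nt for Kcnj2 and 2463 nt for Kcnj12, and with the offset the log2 fold changes were -0.04 and 0.18. The ratio of Kcnd2 to Kcnd3 was 1.08, 1.46 and 0.810 in STAT3cKO and 1.51, 1.28 and 1.25 in wild type, which overlap (difference of log2 ratios -0.31, exact permutation p = 0.3). Adjusted over the 4 ratios by Benjamini-Hochberg, these p-values are 0.2 for the ratios without overlap and 0.3 for the others. Kcnj14 did not pass (adjusted p = 0.749).

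**Figure D4:**
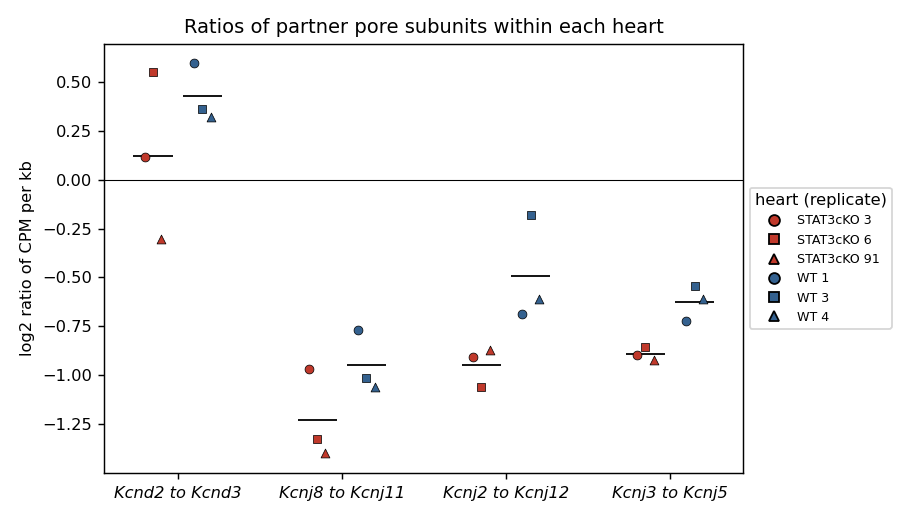
Log2 ratio of CPM per kb between 2 related pore genes, in each heart, STAT3cKO in red left of WT in blue, with lines at group means. For Kcnj2 to Kcnj12 and Kcnj3 to Kcnj5 every STAT3cKO heart lies below every WT heart, and for Kcnd2 to Kcnd3 and Kcnj8 to Kcnj11 the groups overlap.

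Leak channels were led by Kcnk3, the acid-sensitive TASK channel. It was at 207, 190.2 and 171 CPM in STAT3cKO and 193, 199 and 182 CPM in wild type, with a log2 fold change of -0.02 (interval -0.20 to 0.17, edgeR adjusted p = 0.919). Kcnk6 was the only leak channel gene that fell, at 4.43, 4.41 and 4.16 CPM in STAT3cKO against 5.15, 6.92 and 7.24 CPM in wild type (log2 fold change -0.57 ± 0.20, adjusted p = 0.0493). That call did not hold in 10 of its 15 alternatives, including limma-voom (adjusted p = 0.0625), DESeq2 (0.0748), the offset (0.148) and 5 of the 6 fits without 1 heart (0.0704 to 0.168). Kcnk2, Kcnk5 and Kcnk13 did not pass, at 0.586 to 2.16 CPM in STAT3cKO and 0.829 to 2.15 CPM in wild type as group means.

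Genes of calcium-activated channels fell in several cases. Kcnn2 and Kcnn3 encode small-conductance channels. Kcnn2 was at 6.14, 8.37 and 4.98 CPM in STAT3cKO replicates 3, 6 and 91, against 9.99, 11.2 and 16.2 CPM in wild type replicates 1, 3 and 4 (log2 fold change -0.94 ± 0.23, edgeR adjusted p = 0.0114). Kcnn3 was at 0.682, 1.23 and 1.31 CPM in STAT3cKO and 3.14, 2.98 and 2.03 CPM in wild type (-1.32 ± 0.33, adjusted p = 0.0122). Neither gene's groups overlapped. Kcnn2 missed the threshold without STAT3cKO replicate 3 (adjusted p = 0.0513) and Kcnn3 without wild type replicate 1 (0.0518). Kcnn1, the most abundant of the 3 per kb, was at 15.2 ± 1.03 CPM in STAT3cKO and 13.8 ± 0.268 CPM in wild type (SD, n = 3 each) and did not pass (adjusted p = 0.434).

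Kcnmb1 encodes the smooth muscle beta subunit of the large-conductance channel. It was at 0.751, 1.49 and 1.15 CPM in STAT3cKO, against 3.24, 3.52 and 2.36 CPM in wild type (log2 fold change -1.41 ± 0.32, edgeR adjusted p = 0.00715). Kcnma1, the pore, held 4, 4 and 16 counts in STAT3cKO and 8, 36 and 8 in wild type, too few to test. Of 12 smooth muscle and pericyte markers 6 fell (50%, against 12.6% of all genes), among them Acta2 and Myh11, and 0 rose. With the offset 4 of the 12 fell (33.3%, against 7.47% of all genes). The 12 markers summed to 2086 to 2268 CPM in STAT3cKO and 2427 to 2649 CPM in wild type. Des, which did not pass, made up most of each sum (1279 to 1448 CPM in STAT3cKO, 1248 to 1344 CPM in wild type). Acta2 was at 27.2, 32.3 and 28.2 CPM in STAT3cKO and 123, 146 and 104 CPM in wild type. Myh11 was at 9.96, 16.2 and 10.9 CPM in STAT3cKO and 80.2, 122 and 52.9 CPM in wild type. The part of these 12 markers in the Kcnmb1 value was not tested. The sodium-activated channel genes did not pass, Kcnt1 with a log2 fold change of -0.88 ± 0.41 (adjusted p = 0.128) and Kcnt2 with 0.24 ± 0.24 (adjusted p = 0.485).

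Markers of other cell types are read against the 12.6% of all genes that were lower and 13.2% that were higher. Of 10 endothelial markers 9 were tested and 6 fell (66.7%), with sums of 872 to 940 CPM in STAT3cKO and 1272 to 1448 CPM in wild type. Of 8 macrophage markers 6 fell, which is 75% (292 to 418 CPM in STAT3cKO, 397 to 504 CPM in wild type). The largest part of those sums was Lyz2, which did not pass (179 to 286 CPM in STAT3cKO, 194.5 to 270 CPM in wild type). Fibroblast markers went both ways, 1 higher and 2 lower of 7. With the offset 5 endothelial markers (55.6%) and 6 macrophage markers (75%) were lower, against 7.47% of all genes. Fibroblast markers were then 1 higher and 1 lower (14.3% each, against 10.4% and 7.47% of all genes). Of 8 skeletal muscle markers 5 were tested and Tnnt3 rose, while Myh4 had no count. T cell markers were near 0, with sums of 3.75 to 5.31 CPM in STAT3cKO and 1.26 to 3.40 CPM in wild type.

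Partners of potassium channels without a Kcn symbol were read from a list of 38 genes, of which 32 were tested. Of these 7 fell and 2 rose, 21.9% and 6.25%, against 12.6% lower and 13.2% higher over all genes, and the median log2 fold change was -0.09. With the offset 3 fell (9.38%, against 7.47% of all genes). Rgs6, which speeds the closing of the acetylcholine-activated channel, was at 12.6, 14.5 and 15.2 CPM in STAT3cKO and 24.4, 23.8 and 28.1 CPM in wild type (log2 fold change -0.85 ± 0.12, edgeR adjusted p = 0.000609). It fell beside Kcnj3 and Kcnj5, and kept its call with the offset (-0.60, adjusted p = 0.00454). Akap9, a scaffold of the Kcnq1 channel, fell (-0.61 ± 0.11, adjusted p = 0.00198), as did Ank2 (-0.60), the actin crosslinker Flna (-0.58) and the intracellular cation channel Tmem38b (-0.49). With the offset Akap9, Ank2 and Flna did not pass (adjusted p = 0.183, 0.455 and 0.209).

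The regulatory subunits of KATP channels were chosen after their values were seen. Abcc8 rose, at 38.5, 47.6 and 36.1 CPM in STAT3cKO hearts against 29.9, 32.7 and 29.8 CPM in wild-type hearts (log2 fold change 0.40 ± 0.12, edgeR adjusted p = 0.0225). Abcc9 fell, at 298, 363 and 205 CPM in STAT3cKO against 431, 415 and 519 CPM in wild type (-0.66 ± 0.19, adjusted p = 0.0394). With the offset Abcc8 kept its call (adjusted p = 0.00623) and Abcc9 did not (0.188). The pores they assemble with, Kcnj11 and Kcnj8, did not pass in either fit.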

How the data were processed

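Gene-level raw counts of 6 mouse heart libraries make up the deposited table, with no normalization by the authors. Per the submitters' processing notes, HISAT2 and GRCm38 were used. Which counter and annotation were used, and how strand and multi-mapped reads were handled, is not given in the sources used here. Exons of 18 of the 46 Kcn genes overlap another gene in GENCODE M21, including 5 that passed the test (among them Kcna6, Kcnab1, Kcnj3 and Kcnn2), so their counts are uncertain.

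The filterByExpr filter (minimum count 10) and TMM scaling of edgeR 4.0.16, run in R 4.3.3, preceded its quasi-likelihood F test with robust estimation. Genotype was the only term, and p-values were adjusted by Benjamini-Hochberg over all genes tested. SE is the size of the log2 fold change over the square root of F, and 95% intervals are normal approximations from it. CPM values are TMM-normalised. Transcript length is that of the longest protein-coding transcript in GENCODE M21 (the longest transcript where none codes). The offset comes from spline trends (5 degrees of freedom each) on log2 length and GC content, fitted per heart to how far each gene's log2 CPM lay from its mean over hearts. Alternatives were other scalings, filters and tools (limma 3.58.1 voom, DESeq2 1.42.0) and each heart left out. The fit was tested on simulated data drawn without a trend in length or GC content. That check therefore does not bear on the length trend seen in these libraries.

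Members, lists and tests were chosen with earlier results of these data known. Named were the Kcn genes that passed, a set of cardiac Kcn genes, the most abundant of each subfamily, and up to 6 partners by smallest p. Other Kcn genes are given by value. No chance test was made over a list. Some genes that are counted are not reported here by name.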

Additional observations from a re-analysis of the deposited data

How the results depend on the processing

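The 12 Kcn genes that fell became 8 to 18 over the alternatives, 8 with the stricter filter, which tested 27 Kcn genes, 10 with the length and GC offset and 18 with library size alone, a scaling that shifted the median of all genes to -0.11 and gave 7.66% higher and 18.7% lower calls over all genes. The stricter filter left Kcna6, Kcnab1, Kcnmb1 and Kcnn3 untested, and the other genes that fell kept their calls. Over all genes it gave 1653 lower of 11448 tested. The count that rose was 2 in most alternatives, 1 with the stricter filter (Kcnc1 was not tested there) and 3 with the offset. The median log2 fold change of Kcn genes was -0.33 with library size alone and -0.12 with the offset, and -0.31 to -0.18 without 1 heart. Of the partner genes 1 rose with library size alone, 3 rose in edgeR without robust estimation and 3 fell with the offset, and 1 to 2 rose without 1 heart. Of the 14 called genes 8 passed in every alternative that tested them, a count that was not made over all genes.

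Sign changes were limited to 10 genes that passed in no such fit. They were Kcnd3 (-0.011), Kcnj11 (-0.084), Kcnk2 (-0.11) and Kcnv2 (-0.082) with library size alone, Kcnk2 (-0.016) without a filter, Kcnv2 (-0.059) in limma-voom, and Kcna4 (0.0049), Kcnd2 (0.041), Kcnk3 (0.039) and Kcnq1ot1 (0.38) with the offset. Without 1 heart the log2 fold change ran from -0.60 to 0.12 for Kcna4, -0.44 to 0.11 for Kcnd2, -0.0028 to 0.060 for Kcnj11, -0.10 to 0.10 for Kcnk2, -0.083 to 0.060 for Kcnk3, -0.71 to 0.062 for Kcnk5, -0.098 to 0.46 for Kcnt2 and -0.18 to 0.33 for Kcnv2. The cause was not tested. No ratio changed sign. No paired analysis was made because the labels do not pair any STAT3cKO library with a wild-type library. Genes under 5 CPM, such as Kcna6, Kcnab1, Kcnc1, Kcnmb1 and Kcnn3, rest on few counts.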
